A study of Mus musculus with 12 samples.

Results

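A set of 32 genes of mitosis was followed across 4 populations of mouse bone marrow progenitors measured on 12 Affymetrix arrays. The 32 genes were listed by name, and a gene was read from probe sets annotated with its symbol alone. Where a gene had several such probe sets, the one that varied most over the 12 arrays stood for it. This gave 31 of the 32 listed genes, out of 18193 genes measured in all. Ccnb1, the cyclin B1 gene, had no probe set annotated with its symbol alone, so no value is given for it. The 31 genes came from 70 probe sets, with 21 genes on several probe sets and 10 on 1.

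All populations came from female C57BL/6 mice aged 4 to 6 weeks, were sorted as lineage-negative, CD117+ and Sca-1-, and had 3 arrays each. CD27+ common myeloid progenitors (CD27+ CMP) were CD34+, CD16/32- and CD27+. CD27- common myeloid progenitors (CD27- CMP) were CD34+, CD16/32- and CD27-. Granulocyte-monocyte progenitors (GMP) were CD34+, CD16/32+ and CD27+. Megakaryocyte-erythrocyte progenitors (MEP) were CD34-, CD16/32- and CD27-. The labels name no transgene, deletion or treatment in any group. RNA came from 80000 cells of each population. The 3 arrays of each population are labelled as biological replicates, with no word on separate animals or pools. The p-values therefore measure only the spread between these arrays.

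Mitosis begins when cyclin-dependent kinase 1, bound to cyclins A and B, and the Aurora and Polo-like kinases drive chromosome condensation and spindle assembly. Kinetochores built on centromeric chromatin attach the chromosomes to the spindle, and a checkpoint holds the anaphase-promoting complex back until the attachments are made. Its activator Cdc20 then starts the destruction of cyclin B and securin, and a ring of actin, anillin and centralspindlin divides the cell. Progenitors of the bone marrow divide often, and the transcripts of these genes accumulate in G2 and M phase. In RNA of whole populations, fewer cells in mitosis and less RNA per mitotic cell cannot be told apart.

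Promoters of genes expressed in G2 and M phase are known for a cell cycle homology region, TTTGAA or TTCGAA, that the MuvB complex binds, and for CCAAT boxes bound by NF-Y. These letters were looked for on both strands in RefSeq promoter windows of GRCm38.p6, from 250 bases before to 50 after a gene's start. The table held 29 windows of 26 of the 31 measured genes, and some genes had overlapping windows. TTTGAA or TTCGAA stood in 24 of the 29 windows (82.8%), against 19.2% of 32851 windows of all genes. CCAAT stood in 22 of the 29 windows (75.9%), against 37.4% of all windows. Both stood in 21 windows (72.4%), against 7.52% of all windows. A match started within 50 bases of the gene's start in 22 of the 29 windows, against 5.31% of all windows, a distance chosen after the positions were seen. The match itself is a description of letters and shows no binding.

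The stretches printed here run from 220 bases before to 30 after the start for the 5 genes with the largest differences that had a window, 5′ to 3′ on the gene's strand, with the motifs, on either strand, in capitals. They are shown because Kif23 ran opposite to Cenpa, Cdc20, Anln and Plk1, and most of the 5 hold the same letters near the start. They lie at chr5:30666666-30666915 on the plus strand for Cenpa, chr9:61946770-61947019 on the minus strand for Kif23, chr4:118437314-118437563 on the minus strand for Cdc20, chr9:22389177-22389426 on the minus strand for Anln and chr7:122159215-122159464 on the plus strand for Plk1.
Cenpa: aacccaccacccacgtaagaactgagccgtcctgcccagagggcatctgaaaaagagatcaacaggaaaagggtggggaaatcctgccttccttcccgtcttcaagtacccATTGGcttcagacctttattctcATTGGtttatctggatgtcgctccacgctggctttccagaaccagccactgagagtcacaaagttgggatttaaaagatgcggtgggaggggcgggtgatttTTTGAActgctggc
Kif23: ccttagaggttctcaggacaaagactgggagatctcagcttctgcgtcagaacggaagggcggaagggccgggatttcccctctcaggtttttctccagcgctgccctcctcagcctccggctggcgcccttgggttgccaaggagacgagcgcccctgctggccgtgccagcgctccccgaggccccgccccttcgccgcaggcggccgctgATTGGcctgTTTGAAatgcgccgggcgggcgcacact
Cdc20: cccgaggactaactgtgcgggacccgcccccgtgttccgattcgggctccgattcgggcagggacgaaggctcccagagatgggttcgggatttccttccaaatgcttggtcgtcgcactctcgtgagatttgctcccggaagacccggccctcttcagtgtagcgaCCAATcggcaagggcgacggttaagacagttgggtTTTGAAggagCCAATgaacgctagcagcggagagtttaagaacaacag
Anln: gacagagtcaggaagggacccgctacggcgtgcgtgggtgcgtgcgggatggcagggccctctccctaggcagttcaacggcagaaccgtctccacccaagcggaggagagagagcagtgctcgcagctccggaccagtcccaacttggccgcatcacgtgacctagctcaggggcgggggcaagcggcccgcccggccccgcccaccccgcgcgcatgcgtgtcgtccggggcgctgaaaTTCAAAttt
Plk1: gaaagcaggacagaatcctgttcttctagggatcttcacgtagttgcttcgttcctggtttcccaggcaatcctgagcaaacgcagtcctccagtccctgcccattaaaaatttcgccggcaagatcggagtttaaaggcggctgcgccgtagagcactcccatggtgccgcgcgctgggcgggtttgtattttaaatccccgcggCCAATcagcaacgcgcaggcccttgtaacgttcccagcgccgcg
Cenpa, which was lower in CD27+ CMP and GMP, held TTTGAA at bases 17 to 22 after its start. Kif23, which was higher in CD27+ CMP than in CD27- CMP, held TTTGAA at bases 3 to 8 after its start with a reversed CCAAT just before it. In Plk1 the TTTGAA lay just after the stretch printed, at bases 31 to 36 after the start. Of the 8 genes that differed between the populations by an F test, which 26.8% of all genes passed, 7 had a window and all 7 held TTTGAA or TTCGAA, as did 14 of the 19 other genes with a window. The letters were thus present in promoters of genes that differed and of genes that did not pass the test. Whether they bear on the differences was not tested.

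The base of the logarithm of the deposited values is not given, and they were read as log2 signals. The authors' table has the median of the 12 arrays of each probe set removed. A value of 1 therefore lies 1 doubling above the median array, levels of different genes cannot be compared, and a gene without variation may be silent or evenly expressed. The 5 erythroid genes Gata1, Klf1, Epor, Rhd and Gfi1b were all lower in CD27+ CMP than in CD27- CMP and in GMP than in MEP, with median log2 differences of -6.59 and -7.14. The 5 granulocyte-monocyte genes Cebpa, Irf8, Csf1r, Mpo and Elane were all higher in the same comparisons, with medians of 6.92 and 7.88. Of 4 measured mature B cell markers and 5 measured mature T and NK cell markers, 0 passed the limma test in either comparison, and 0 had an unadjusted p under 0.05. Of 5 neutrophil markers 1 passed in GMP minus MEP, Lcn2, which was higher (log2 3.32). Of 4 measured late erythroblast markers 1 passed, Epb42, which was lower in both comparisons (-2.62 and -3.86). Of 5 markers of stroma and endothelium 1 passed, Pecam1, which was higher in both (5.0 and 4.41). The part of such cells in the results that follow was not tested. Array medians over all genes ran from -0.029 to 0.054. The third CD27- CMP array stood apart on the 15263 probe sets with a range of 1 log2 unit or more. There the standard deviation of its difference from the other 2 was 0.825 and 0.685, against 0.369 to 0.627 for the other replicate pairs. Where leaving it out gave or ended a call of a mitosis gene, both values are given with the gene.

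Between CD27+ CMP and CD27- CMP, 7 of the 31 mitosis genes passed the test at an adjusted p under 0.05, against 22.4% of all genes. Cenpa, Plk1, Cdc20, Anln, Ccna2 and Cdca8 were lower in CD27+ CMP, and Kif23 was higher. That is 6 genes lower where 10.3% of all genes were lower, and 1 gene higher where 12.1% of all genes were higher. Between GMP and MEP, 6 of the 31 passed, against 22.9% of all genes, and all 6 were lower in GMP: Cenpa, Ccna2, Cdc20, Plk1, Ccnb2 and Cdca8. Over all genes 11.3% were lower and 11.5% higher in GMP. The total shares were thus near those of all genes, and the direction was mostly down on the granulocyte-monocyte side. The median log2 difference of the 31 genes was -0.01 in CD27+ CMP minus CD27- CMP and -0.22 in GMP minus MEP, beside -0.03 and -0.04 over all genes. The arrays of CD27+ CMP and CD27- CMP did not overlap for 7 of the 31 genes, against 33.6% of all genes, and those of GMP and MEP did not overlap for 14, against 40.4%.

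Across the diagonal, CD27+ CMP had 5 genes lower than MEP (Plk1, Cdc20, Ccna2, Cenpa and Anln), where 24.8% of all genes passed, 11.9% higher and 12.9% lower. Their arrays did not overlap for 11 of the 31 genes, against 60.9% of all genes. The arrays of CD27- CMP and GMP did not overlap for 6, against 30.7%. CD27- CMP had 5 genes higher than GMP (Plk1, Cdc20, Ccna2, Cdca8 and Cenpa) and 1 lower (Kif23), where 22.3% of all genes passed, 10.2% higher and 12.1% lower. In CD27+ CMP against GMP 0 of the 31 genes passed, where 5.24% of all genes did (2.59% higher and 2.65% lower). In CD27- CMP against MEP 0 passed, where 0.033% of all genes did, or 6 genes (0.0165% higher and 0.0165% lower). At an unadjusted p under 0.05 the comparison of CD27+ CMP with GMP held 1 of the 31 genes (Cenpa), where 13.5% of all genes did, and that of CD27- CMP with MEP held 4 (Ccnb2, Mad2l1, Cdca8 and Kif20a), where 6.29% did. The 6 comparisons share arrays, so their counts are not independent of each other. Differences were tested with limma with Benjamini-Hochberg adjustment over all 18193 genes, as are all adjusted p-values that follow unless said otherwise. Without CD27+ CMP replicate 1 or without CD27- CMP replicate 2, 4 of the 31 genes passed in CD27+ CMP minus CD27- CMP. Without the third CD27- CMP array, 6 passed there, 7 in GMP minus MEP, 8 in CD27+ CMP minus MEP and 5 in CD27- CMP minus GMP, with 0 again in the other 2 comparisons. Shares of all genes without these arrays are not printed here, so these counts show only how the calls depend on single arrays.

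**Figure D1:**
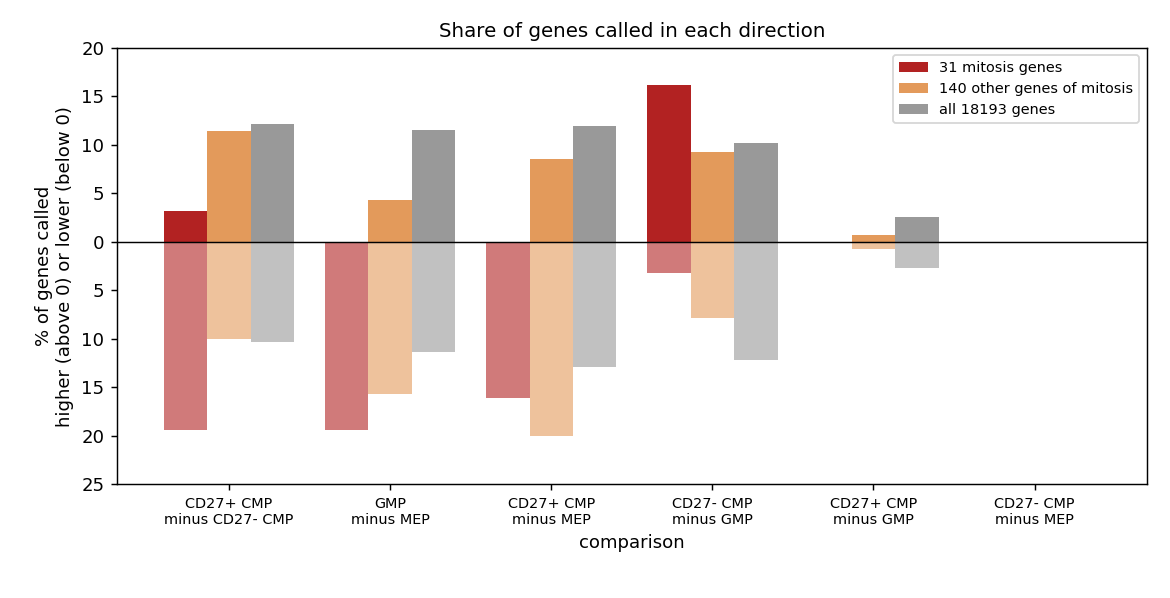
Share of genes that passed the test (adjusted p under 0.05), in %, in each of the 6 comparisons. Bars above 0 are genes higher in the first-named population and bars below 0 are genes lower in it, for the 31 mitosis genes (red), 140 other genes of mitosis (orange) and all 18193 genes (grey). The mitosis genes pass mostly downward in CD27+ CMP and GMP, with 6 of 31 lower in each of the first 2 comparisons.

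**Figure D2:**
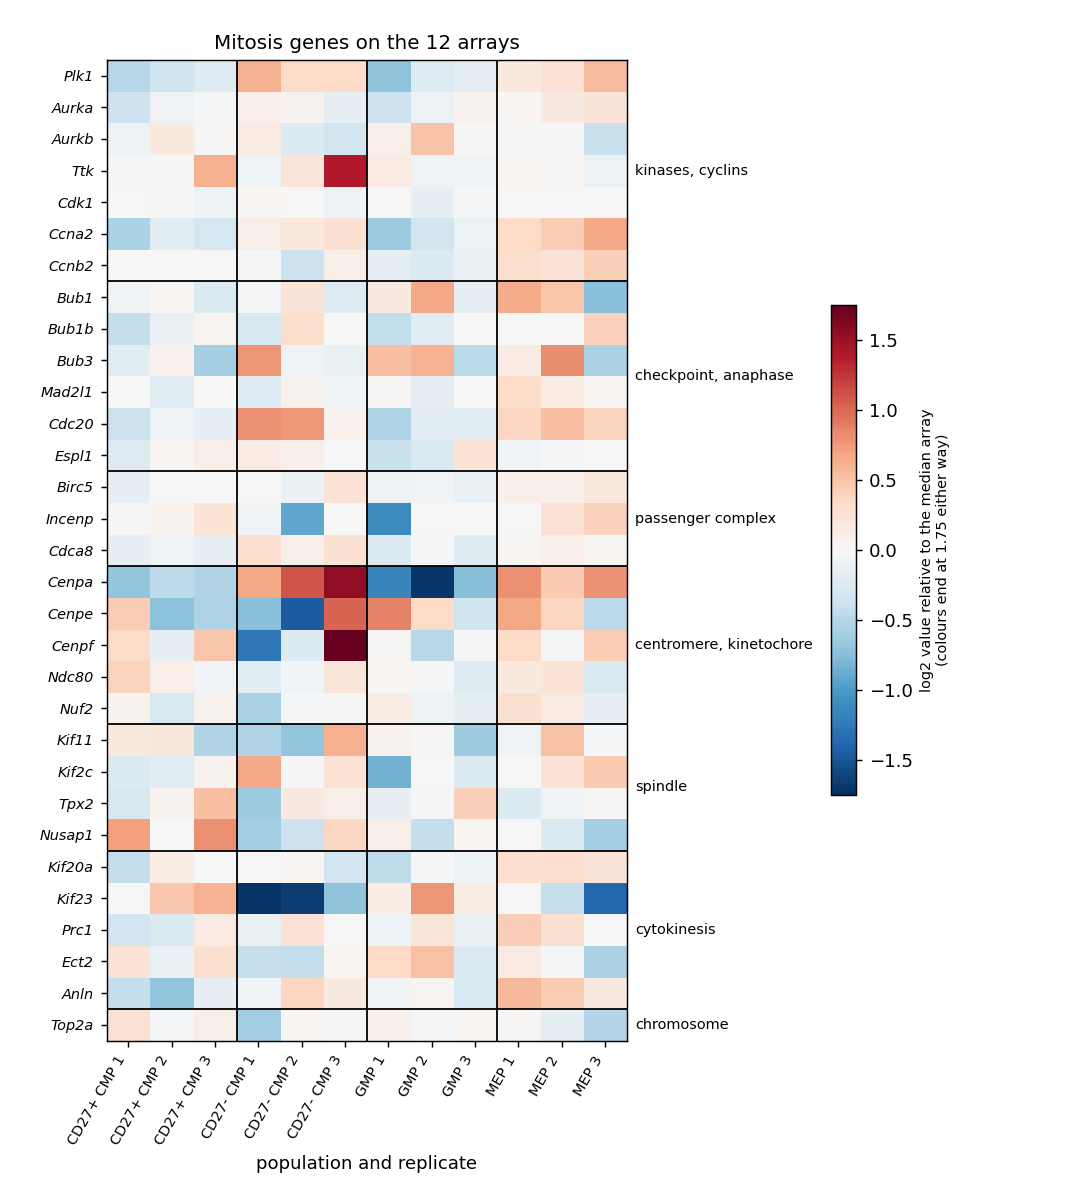
Log2 value relative to the median array (colour, red above and blue below) of the 31 mitosis genes (rows, grouped by role) on the 12 arrays (columns, grouped by population). Plk1, Cdc20, Ccna2 and Cenpa are blue on all 6 CD27+ CMP and GMP arrays and red on all 6 CD27- CMP and MEP arrays, and Kif23 has its 2 lowest values in CD27- CMP.

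MEP had the highest mean for 14 of the 31 genes and GMP the lowest for 15. The means of 13 genes lay lower in both CD27+ CMP than CD27- CMP and GMP than MEP, and those of 7 lay higher in both. The same counts were not made over all genes, so these show nothing particular to mitosis genes. Array medians over all genes were 0.054, 0.028 and 0.003 in MEP, and -0.013, 0.021 and -0.023 in GMP. Ranges over the 12 arrays ran from 0.179 for Cdk1 to 3.26 for Cenpa, with a median of 1.14, beside 0.855 over all genes. Ranges were under 1 for 14 genes and 1 or more for the other 17.

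Among the kinases, Plk1, the Polo-like kinase of centrosome maturation and mitotic entry (chr7:122159435-122169884), was lower in CD27+ CMP and in GMP. Its values were -0.50, -0.35 and -0.23 in CD27+ CMP, against 0.62, 0.34 and 0.33 in CD27- CMP. They were -0.70, -0.23 and -0.17 in GMP, against 0.17, 0.25 and 0.56 in MEP. No array of CD27+ CMP or GMP reached the lowest array of CD27- CMP or MEP. The log2 difference was -0.79 (SE 0.16, adjusted p = 0.0061) in CD27+ CMP minus CD27- CMP, a 1.72-fold lower signal, and -0.69 (adjusted p = 0.012) in GMP minus MEP. Plk1 also passed in CD27+ CMP minus MEP (-0.68) and CD27- CMP minus GMP (0.79). Its single probe set kept all 4 calls in each of 21 alternative analyses. The alternatives that change the probe set reused the same values for this gene, so they are no test on another probe set.

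Ccna2 encodes cyclin A2, the partner of the cyclin-dependent kinases in S phase and G2 (chr3:36564865-36573038). Its values were -0.56, -0.19 and -0.29 in CD27+ CMP, against 0.10, 0.18 and 0.27 in CD27- CMP, a log2 difference of -0.53 (SE 0.15, adjusted p = 0.029). They were -0.64, -0.32 and -0.10 in GMP, against 0.35, 0.45 and 0.66 in MEP, a difference of -0.84 (adjusted p = 0.0024). MEP arrays were the highest, and the arrays did not overlap in either pair. A second Ccna2 probe set correlated with the first at r = 0.44 over the 12 arrays and passed in no comparison, with -0.26 and -0.40 in the same comparisons. The first comparison lost its call without CD27+ CMP replicate 1 (adjusted p = 0.11) or 3 (0.062) and without CD27- CMP replicate 1 (0.051), 2 (0.075) or 3 (0.069). CD27- CMP was higher than GMP by 0.54 (adjusted p = 0.027), and that call was lost without CD27- CMP replicate 2 (0.071) or 3 (0.069) or GMP replicate 1 (0.084) or 2 (0.063). The other 2 calls of Ccna2 held without any 1 array.

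Ccnb2, the cyclin B2 gene (chr9:70407689-70421554), read -0.15, -0.24 and -0.13 in GMP, against 0.31, 0.25 and 0.42 in MEP, a log2 difference of -0.50 (SE 0.10, adjusted p = 0.0065). In CD27+ CMP it read -0.01, 0.01 and 0.01, against -0.03, -0.37 and 0.10 in CD27- CMP, a difference of 0.10 with a 95% interval of -0.13 to 0.34. In CD27+ CMP minus MEP the difference was -0.32, which passed without CD27- CMP replicate 3 (adjusted p = 0.022) and not with it (0.052). The 2 differences themselves differed by 0.60 (SE 0.15), which did not pass across all genes (unadjusted p = 0.0028, adjusted p = 0.10), where 2.06% of genes did. Of the 31 genes, 0 passed this limma test of the difference between the 2 contrasts, and Ccnb2 was the 1 gene with an unadjusted p under 0.05. Cdk1, the kinase that both cyclins activate, was flat, between -0.15 and 0.03 on the 12 arrays. Its log2 difference was -0.01 in CD27+ CMP minus CD27- CMP (95% interval -0.12 to 0.10) and -0.06 in GMP minus MEP (-0.17 to 0.05).

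The other mitotic kinases did not pass. Aurka, the Aurora kinase of spindle poles, averaged -0.13 ± 0.22 in GMP and 0.14 ± 0.09 in MEP (SD, n = 3 each), a log2 difference of -0.27 (95% interval -0.56 to 0.02). Aurkb, the Aurora kinase of centromeres and midzone, read 0.11, 0.49 and 0.03 in GMP, against -0.03, -0.03 and -0.38 in MEP, a difference of 0.36 (-0.02 to 0.73, adjusted p = 0.18). A second Aurkb probe set with a smaller range gave 0.36 in GMP minus MEP as well and passed there (adjusted p = 0.0042 over all probe sets), and on it CD27- CMP was lower than GMP by a log2 difference of -0.39 (adjusted p = 0.0028 over all probe sets). Ttk, the checkpoint kinase that phosphorylates kinetochores, read -0.08, 0.21 and 1.40 in CD27- CMP, and its other arrays lay between -0.10 and 0.63.

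Of the 6 genes of the spindle checkpoint and anaphase, Cdc20 was the one that passed. Cdc20 activates the anaphase-promoting complex and is the target of the checkpoint (chr4:118432901-118437343). It read -0.38, -0.08 and -0.14 in CD27+ CMP, against 0.80, 0.76 and 0.08 in CD27- CMP, a log2 difference of -0.74 (SE 0.19, adjusted p = 0.019). It read -0.54, -0.20 and -0.18 in GMP, against 0.36, 0.52 and 0.38 in MEP, a difference of -0.73 (adjusted p = 0.020). The third CD27- CMP array was the lowest of its population and close to the CD27+ CMP arrays, and without it the first difference was -0.98 (adjusted p = 0.00077). The first call was lost without CD27+ CMP replicate 1 (adjusted p = 0.072) or CD27- CMP replicate 1 (0.069) or 2 (0.072), and the second without GMP replicate 1 (0.079) or MEP replicate 2 (0.070). Both other Cdc20 probe sets moved the same way, by -0.46 and -0.41 in the first comparison and by -0.55 and -0.37 in the second. The first of these, at r = 0.79 with the chosen probe set, passed in no comparison. The second, at r = 0.97 with it, passed in both (adjusted p = 0.030 and 0.046 over all probe sets). In CD27+ CMP minus MEP the difference of -0.62 passed narrowly (adjusted p = 0.039) and missed the threshold without any 1 of 8 arrays, with adjusted p-values from 0.050 to 0.13.

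The other 5 genes of this group passed in none of the 6 comparisons on the probe set that varied most. Bub1, the checkpoint kinase of the outer kinetochore, read 0.65, 0.49 and -0.73 in MEP, and Bub3, its partner, read 0.15, 0.81 and -0.55, so that the arrays of 1 population were spread widely. Another Bub3 probe set read -0.29, -0.17 and -0.30 in CD27+ CMP, against 0.29, 0.09 and 0.50 in CD27- CMP, a log2 difference of -0.55 (adjusted p = 0.019 over all probe sets). On it CD27- CMP was also higher than GMP, by 0.53 (adjusted p = 0.023 over all probe sets), and the other 3 Bub3 probe sets passed in no comparison. With the mean of the 5 probe sets, Bub3 was lower in CD27+ CMP than in CD27- CMP by a difference of -0.30 (adjusted p = 0.049). Bub1b, the BubR1 gene, had a log2 difference of -0.18 (95% interval -0.61 to 0.25) in CD27+ CMP minus CD27- CMP and -0.35 (-0.78 to 0.08) in GMP minus MEP. Mad2l1, which binds Cdc20 in the checkpoint complex, read 0.02, -0.17 and -0.01 in GMP, against 0.32, 0.15 and 0.05 in MEP, without overlap, and its difference of -0.22 did not pass (adjusted p = 0.14). Espl1, the separase that cuts cohesin, had differences of -0.11 (-0.45 to 0.23) and -0.12 (-0.46 to 0.22).

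In the chromosomal passenger complex, which corrects attachments with Aurkb as its kinase, Cdca8 passed. Cdca8 encodes borealin (chr4:124918465-124936917). It read -0.14, -0.07 and -0.14 in CD27+ CMP, against 0.30, 0.10 and 0.26 in CD27- CMP, a log2 difference of -0.34 (SE 0.065, adjusted p = 0.0042). It read -0.25, -0.03 and -0.22 in GMP, against 0.03, 0.08 and 0.05 in MEP, a difference of -0.22 (adjusted p = 0.039, and 0.071 with the replicate number as a block). The second of these calls was lost on leaving out any 1 of 8 arrays, among them GMP replicate 1 (adjusted p = 0.14). The differences were small in size, and the first was a 1.27-fold lower signal. Cdca8 had 3 probe sets. The second most variable averaged -0.08 in CD27+ CMP, 0.17 in CD27- CMP, -0.13 in GMP and 0.03 in MEP, and it passed in no comparison. The third averaged -0.10, 0.03, -0.20 and 0.09 in the same order, with MEP the highest. With the mean of the 3 probe sets Cdca8 passed in both comparisons. Birc5, survivin, read -0.09, -0.06 and -0.12 in GMP, against 0.09, 0.09 and 0.19 in MEP, a difference of -0.21 that did not pass (adjusted p = 0.11). Without CD27- CMP replicate 3 it passed with the same value (adjusted p = 0.019), as did the difference of -0.17 in CD27+ CMP minus MEP (adjusted p = 0.044, against 0.18 with it). Incenp, the scaffold, had single low arrays, -1.11 in GMP replicate 1 and -0.92 in CD27- CMP replicate 2, with its other arrays between -0.06 and 0.41. Its differences were 0.41 (95% interval -0.34 to 1.15) in CD27+ CMP minus CD27- CMP and -0.59 (-1.34 to 0.15) in GMP minus MEP.

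Cenpa, the histone H3 variant that marks centromeres (chr5:30666877-30674837), had the widest range of the 31 genes and was lower in both CD27+ populations. It read -0.69, -0.45 and -0.52 in CD27+ CMP, against 0.68, 1.10 and 1.55 in CD27- CMP. It read -1.15, -1.71 and -0.74 in GMP, against 0.79, 0.45 and 0.79 in MEP. The 6 arrays of the CD27+ populations were all below 0 and the 6 of the CD27- populations all above it. The log2 difference was -1.67 (SE 0.27, adjusted p = 0.0015) in CD27+ CMP minus CD27- CMP, a 3.17-fold lower signal, and -1.88 (adjusted p = 0.00064) in GMP minus MEP, a 3.68-fold lower signal. It was -1.23 (adjusted p = 0.0076) in CD27+ CMP minus MEP and 2.31 (adjusted p = 0.00018) in CD27- CMP minus GMP. Without the third CD27- CMP array, the first difference was -1.44 (adjusted p = 0.0049).

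On a second Cenpa probe set CD27+ CMP and GMP were again the lower populations, while the order of CD27- CMP and MEP was turned. It read -0.65, -0.58 and -0.92 in CD27+ CMP, against 0.91, 0.58 and 0.72 in CD27- CMP, a log2 difference of -1.45 (SE 0.13, adjusted p = 5.5e-05 over all probe sets). It read -0.95, -0.77 and -1.10 in GMP, against 1.00, 1.06 and 0.75 in MEP, a difference of -1.88 (adjusted p = 8.5e-06 over all probe sets). The third Cenpa probe set was flat, with a range of 0.055. Between CD27+ CMP and GMP the first probe set differed by 0.65 (95% interval 0.04 to 1.25, adjusted p = 0.31), and between CD27- CMP and MEP by 0.43 (-0.17 to 1.04, adjusted p = 0.82), against -0.20 on the second probe set (adjusted p = 0.79 over all probe sets).

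**Figure D3:**
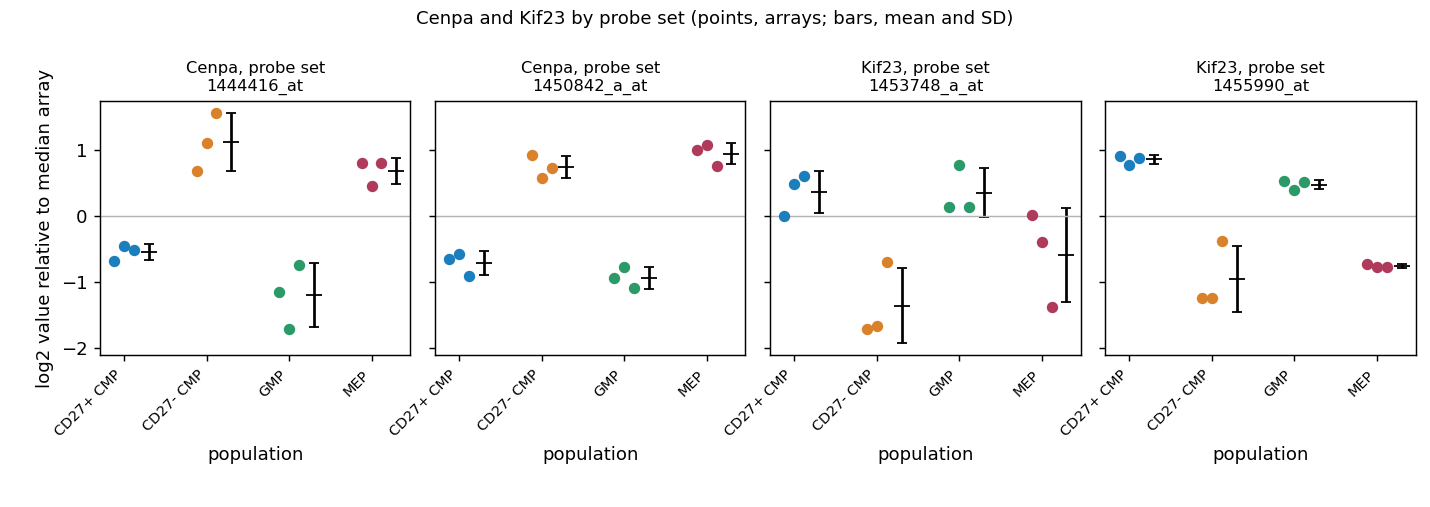
Log2 value relative to the median array of 2 probe sets each of Cenpa and Kif23 in the 4 populations (points, arrays, with bars for the mean and SD of 3 arrays). Cenpa lies below 0 in CD27+ CMP and GMP and above 0 in CD27- CMP and MEP on both probe sets, and Kif23 lies highest in CD27+ CMP and GMP, without overlap with MEP on the second of its probe sets.

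The outer kinetochore genes passed in none of the 6 comparisons. Cenpf, a kinetochore protein of G2 and M phase, spanned 3.16, with both the lowest and the highest of the 12 arrays in CD27- CMP, at -1.25, -0.24 and 1.91. Cenpe, the kinetochore motor that moves chromosomes to the plate, read -0.73, -1.46 and 1.02 in the same population, with the third array the highest of the 12. Their 95% intervals in CD27+ CMP minus CD27- CMP reached from -1.40 to 1.55 for Cenpf and from -1.32 to 1.56 for Cenpe, so a change of 1 log2 unit either way was not detectable. Ndc80 and Nuf2, which form the microtubule-binding arm of the kinetochore, had ranges of 0.64 and 0.82. Their differences were 0.16 (-0.21 to 0.53) and 0.14 (-0.25 to 0.54) in CD27+ CMP minus CD27- CMP, and -0.12 (-0.49 to 0.25) and -0.12 (-0.52 to 0.27) in GMP minus MEP.

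Spindle motors and microtubule proteins other than Kif23 did not pass in any comparison over all 12 arrays. Kif2c, the kinesin that takes microtubules apart at centromeres, averaged -0.36 ± 0.42 in GMP and 0.24 ± 0.23 in MEP (SD, n = 3 each), and its log2 difference of -0.59 had an adjusted p of 0.12. Kif11, the motor that separates the poles, read -0.53, -0.70 and 0.62 in CD27- CMP, with the third array the highest of the 12. Tpx2, which activates Aurka on the spindle, read -0.28, 0.07 and 0.52 in CD27+ CMP and -0.62, 0.16 and 0.10 in CD27- CMP, which overlap. Nusap1, a bundler of spindle microtubules, read 0.72, -0.01 and 0.80 in CD27+ CMP, against -0.60, -0.38 and 0.36 in CD27- CMP, a difference of 0.71 (95% interval 0.03 to 1.39, adjusted p = 0.15). Without CD27- CMP replicate 3 this difference was 0.99 and passed (adjusted p = 0.033), as did that of 0.78 in CD27+ CMP minus MEP (adjusted p = 0.0495, against 0.097 with it). The second also passed without CD27+ CMP replicate 2, at 1.04 (adjusted p = 0.037). Top2a, the topoisomerase that untangles sister chromatids, had differences of 0.32 (-0.09 to 0.73) and 0.25 (-0.16 to 0.66) in CD27+ CMP minus CD27- CMP and GMP minus MEP, and another of its probe sets passed in CD27+ CMP minus MEP (0.42, adjusted p = 0.044 over all probe sets).

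In cytokinesis, Kif23 ran opposite to Cenpa. Kif23 encodes the kinesin of centralspindlin, the complex that bundles the midzone and recruits the division machinery (chr9:61917277-61946810). It read -0.01, 0.48 and 0.60 in CD27+ CMP, against -1.72, -1.67 and -0.70 in CD27- CMP, a log2 difference of 1.72 (SE 0.40, adjusted p = 0.012), or a 3.29-fold higher signal. It read 0.13, 0.77 and 0.13 in GMP, against 0.01, -0.40 and -1.38 in MEP, a difference of 0.93 (95% interval 0.03 to 1.84, adjusted p = 0.14). The MEP arrays were spread widely, although none reached the lowest GMP array. CD27- CMP was lower than GMP by a log2 difference of -1.71 (adjusted p = 0.013, and 0.051 without GMP replicate 2).

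A second Kif23 probe set was tighter in MEP. It read 0.91, 0.77 and 0.88 in CD27+ CMP, against -1.24, -1.24 and -0.39 in CD27- CMP, a log2 difference of 1.81 (SE 0.20, adjusted p = 0.00018 over all probe sets). It read 0.52, 0.39 and 0.51 in GMP, against -0.73, -0.78 and -0.77 in MEP, a difference of 1.23 (adjusted p = 0.0019 over all probe sets). On this probe set Kif23 was also higher in CD27+ CMP than in MEP, by 1.61 (adjusted p = 0.00034). The call in GMP minus MEP thus differed between the probe sets while the direction did not. The third Kif23 probe set was flat, with a range of 0.11.

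Anln, the anillin of the contractile ring (chr9:22331214-22389211), read -0.42, -0.69 and -0.14 in CD27+ CMP, against -0.04, 0.38 and 0.16 in CD27- CMP. The log2 difference of -0.58 (SE 0.17, adjusted p = 0.035) lost its call without any of CD27+ CMP replicates 1 and 2, CD27- CMP replicates 2 and 3, GMP replicate 1 and MEP replicate 2, with adjusted p-values from 0.052 to 0.12 (0.064 without CD27- CMP replicate 3). Against MEP (0.57, 0.44 and 0.16), CD27+ CMP was lower, with a difference of -0.81 (adjusted p = 0.0062). A second Anln probe set correlated with the first at r = 0.17 and passed in neither comparison. Kif20a, the kinesin of the midzone that carries the passenger complex, read -0.45, -0.03 and -0.09 in GMP, against 0.29, 0.30 and 0.22 in MEP, a difference of -0.46 that did not pass (adjusted p = 0.076). Prc1, which bundles antiparallel microtubules of the midzone, had differences of -0.19 (95% interval -0.57 to 0.19) and -0.23 (-0.60 to 0.15) in CD27+ CMP minus CD27- CMP and GMP minus MEP. Ect2, the exchange factor that centralspindlin brings to the cortex, had differences of 0.40 (-0.15 to 0.95) and 0.36 (-0.20 to 0.91).

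**Figure D4:**
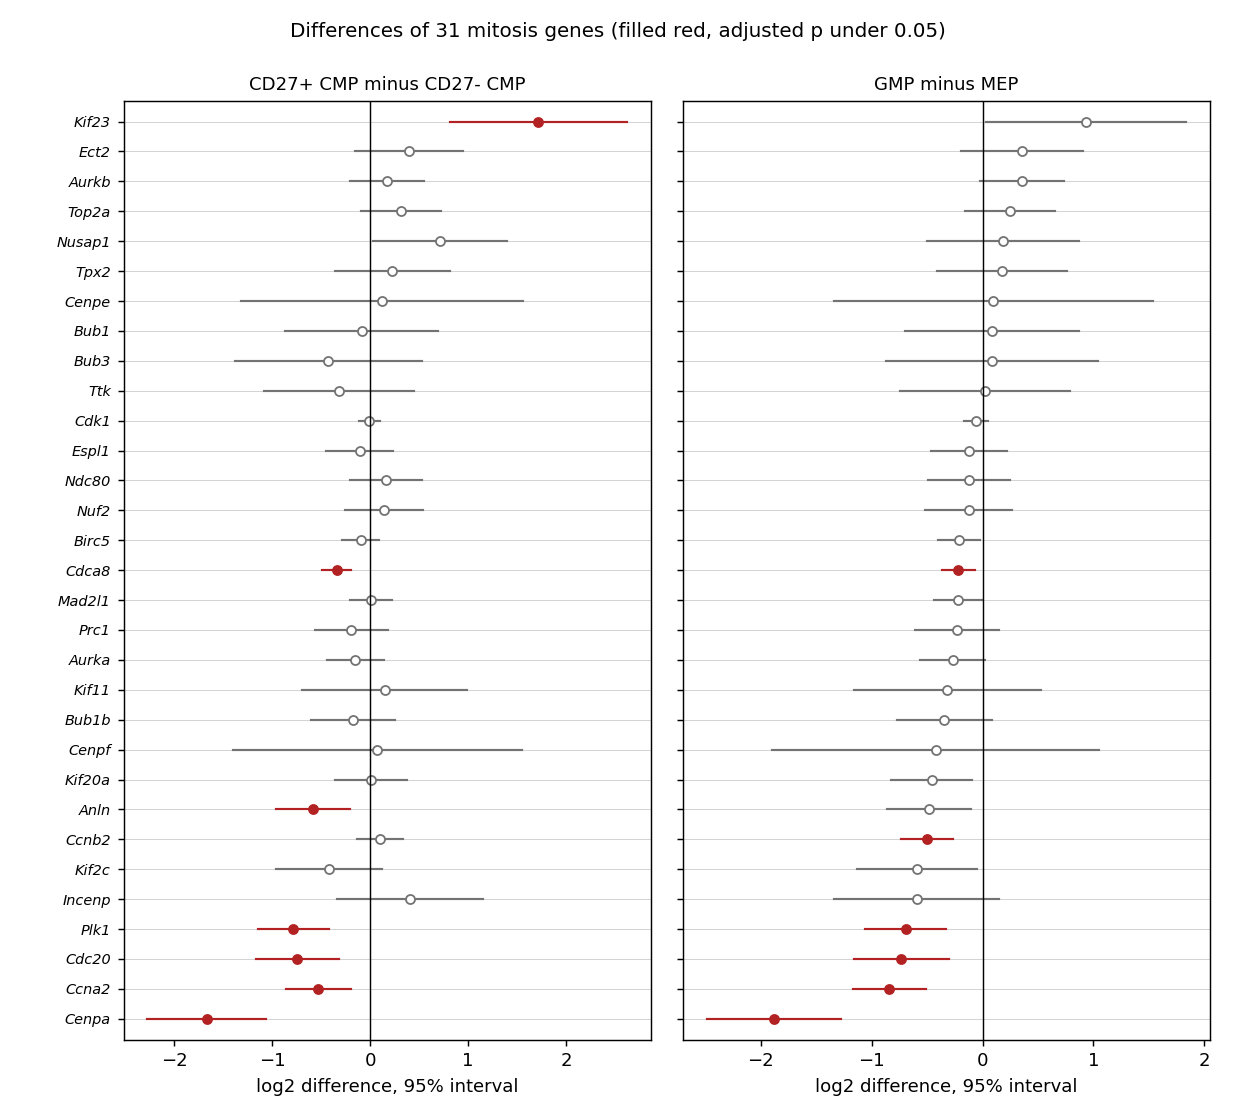
Log2 difference (x axis) of the 31 mitosis genes (rows, sorted by the GMP minus MEP difference) in CD27+ CMP minus CD27- CMP (left) and GMP minus MEP (right), with 95% intervals as bars. Filled red points passed the test at an adjusted p under 0.05. Cenpa lies at -1.67 and -1.88, Kif23 at 1.72 and 0.93, and most other genes lie within 1 log2 unit of 0.

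Between CD27+ CMP and GMP the largest differences in size among the 31 genes were 0.65 for Cenpa, 0.60 for Nusap1 (95% interval -0.09 to 1.28) and -0.56 for Cenpe (-2.00 to 0.88). Between CD27- CMP and MEP they were -0.77 for Kif23 (-1.68 to 0.13) and -0.58 for Cenpe. Groups did not overlap for 2 of the 31 genes in the first of these comparisons, against 15.7% of all genes, and for 4 in the second, against 8.15%. The median size of the difference was 0.114 in the first and 0.139 in the second, beside 0.0703 and 0.0641 over all genes. Plk1 had intervals of -0.35 to 0.37 and -0.26 to 0.47, and Cdc20 of -0.32 to 0.54 and -0.31 to 0.55. These bound the differences of both genes to less than 1 log2 unit, which does not show that the levels were equal.

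Correlations between pairs of mitosis genes ran from -0.80 to 0.91 over the 12 arrays. The median Pearson correlation of the 465 pairs was 0.11, and 267 pairs were above 0. Plk1 was closest to Cdc20 (r = 0.91), Ccna2 (0.89) and Kif2c (0.89), and farthest from Kif23 (-0.80). Within populations, on deviations from the group means, the median of the 465 pairs was 0.04, and 245 were above 0. There Plk1 and Kif2c stood at 0.90, Plk1 and Cdc20 at 0.55, and Plk1 and Kif23 at -0.26. Plk1 and Cenpa stood at -0.12 there, against 0.83 over the 12 arrays, and Cdc20 and Cenpa at -0.47, against 0.77. The genes of 1 array share its RNA and hybridisation, and the values describe 12 arrays only. Among the 3 arrays of its population, CD27+ CMP replicate 3 was highest for 16 of the 31 genes, against 17.8% of all genes, and CD27+ CMP replicate 1 was lowest for 17, against 25.1%. CD27- CMP replicate 3 was highest for 14 of the 31, against 21.2% of all genes. The genes nearest to the mean profile of the 31, each scaled to a standard deviation of 1, were Angel2 (r = 0.95), Ttc26 (0.93), Pcgf6 (0.92), 2810021J22Rik (0.89), Nap1l3 (0.89), Ptpn12 (0.89), Pkd2l2 (0.89) and Ube2e3 (0.88), among 8160 other genes with a range of at least 1.

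Another 140 genes of mitosis in 7 lists were read in the same way, with Ube2c in 2 of the lists. In CD27+ CMP minus CD27- CMP 16 were higher and 14 lower, with a median of -0.07, and in GMP minus MEP 6 were higher and 22 lower, with a median of -0.28. Over all genes the shares higher and lower were 12.1% and 10.3% in the first and 11.5% and 11.3% in the second. In CD27+ CMP minus MEP 12 were higher and 28 lower, where 11.9% of all genes were higher and 12.9% lower. Condensin had 0 of 8 subunits past the threshold in either of the first 2 comparisons, with medians of 0.06 and -0.29.

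Among 31 further kinetochore genes, 1 was higher and 5 were lower in CD27+ CMP than in CD27- CMP (median -0.38), and 8 were lower in GMP than in MEP (median -0.39). As shares of the list, 19.4% and 25.8% passed, against 22.4% and 22.9% of all genes. Cenpu, of the inner kinetochore, read -0.82, -0.68 and -0.85 in CD27+ CMP, against 0.33, 0.19 and 0.13 in CD27- CMP, a log2 difference of -1.0 (SE 0.066, adjusted p = 4.4e-06). Cenpn, which reads the Cenpa nucleosome, read -0.58, -0.69 and -0.38 in GMP, against 0.23, 0.59 and 0.65 in MEP, a difference of -1.04 (adjusted p = 0.00054), and it was also lower in CD27+ CMP than in CD27- CMP (-0.72). Oip5, of the complex that licenses Cenpa deposition, was lower in both comparisons, by differences of -0.63 and -0.89. Zw10, of the complex that brings dynein to kinetochores, was lower as well (-0.47 and -0.54). Kntc1, a partner of Zw10 in that complex, was the one gene of the list that was higher in CD27+ CMP than in CD27- CMP (0.46).

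Among 27 further genes of the spindle and cytokinesis, 5 were higher and 4 lower in CD27+ CMP than in CD27- CMP, and 4 were higher and 5 lower in GMP than in MEP. In each comparison 33.3% of the list passed, against 22.4% and 22.9% of all genes. Cep55, the midbody protein that recruits the abscission machinery, read 1.86, 1.45 and 1.62 in CD27+ CMP, against -1.54, -1.96 and -1.21 in CD27- CMP. It read 1.83, 1.83 and 1.21 in GMP, against -2.00, -1.77 and -2.40 in MEP. The log2 differences were 3.22 (SE 0.25, adjusted p = 1.2e-05) and 3.68 (adjusted p = 4.1e-06), which are 9.30-fold and 12.8-fold higher signals. Racgap1, the partner of Kif23 in centralspindlin, read 0.24, 0.28 and 0.46 in CD27+ CMP, against -0.40, -0.65 and -0.27 in CD27- CMP, a difference of 0.77 (adjusted p = 0.00039). In GMP it was higher than in MEP by 0.65 (adjusted p = 0.0010). Numa1, which holds dynein at the spindle poles, was higher by 0.94 and 0.58. The genes lower in both comparisons were Kif4, a kinesin that binds chromosome arms (-0.40 and -0.75), and Dlgap5, a spindle protein (-0.40 and -0.68).

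Among 22 regulators of mitotic entry and exit, 4 were higher and 3 lower in CD27+ CMP than in CD27- CMP, and 5 were lower in GMP than in MEP. The shares of this list that passed were 31.8% and 22.7%, against 22.4% and 22.9% of all genes. Cks2, a small subunit of cyclin-dependent kinases, was lower in both (log2 -0.54 and -0.34), as was Gtse1, a microtubule-binding protein of G2 and M phase (-0.69 and -0.76). Ensa, an inhibitor of the phosphatase that opposes mitotic kinases, was higher in CD27+ CMP than in CD27- CMP (1.03). Mki67, the gene of the Ki-67 proliferation antigen, read 0.74, -0.16 and 0.55 in CD27+ CMP, against -0.64, -0.47 and 0.77 in CD27- CMP, with a difference of 0.49 that did not pass (adjusted p = 0.49). Among 15 cohesin genes, 0 were higher and 2 lower in CD27+ CMP than in CD27- CMP, and 1 was higher and 2 lower in GMP than in MEP. The cohesin shares were 13.3% and 20%. Wapl, which releases cohesin, was lower by log2 differences of -1.52 and -1.41 and Pttg1, the securin, by -0.76 and -0.60. Of 18 subunits and partners of the anaphase-promoting complex, 1 was higher in CD27+ CMP than in CD27- CMP and 2 were lower in GMP than in MEP. Their shares were 5.56% and 11.1%. Of 20 genes that control transcription of mitotic genes, 5 were higher in CD27+ CMP than in CD27- CMP and 1 in GMP than in MEP. These were shares of 25% and 5%. E2f7, a repressor of the E2f family, read 0.78, 1.04 and 1.33 in CD27+ CMP, against -0.67, -0.77 and -1.28 in CD27- CMP, and it was higher in both comparisons (1.95 and 1.84). Foxm1, the activator of G2 and M phase genes, had differences of 0.52 (95% interval 0.15 to 0.89, adjusted p = 0.052) and 0.14, and Mybl2, the B-Myb gene, of -0.66 and -0.12, none of which passed.

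Of 18 S phase genes, 3 were higher and 1 lower in CD27+ CMP than in CD27- CMP, and 3 were lower in GMP than in MEP. The shares that passed were thus 22.2% and 16.7%, near or below the 22.4% and 22.9% of all genes. Cdc6, which loads the replicative helicase, was the one lower in both (log2 -0.93 and -1.04). Mcm3, a subunit of that helicase, was higher in CD27+ CMP than in CD27- CMP (0.80).

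**Figure D5:**
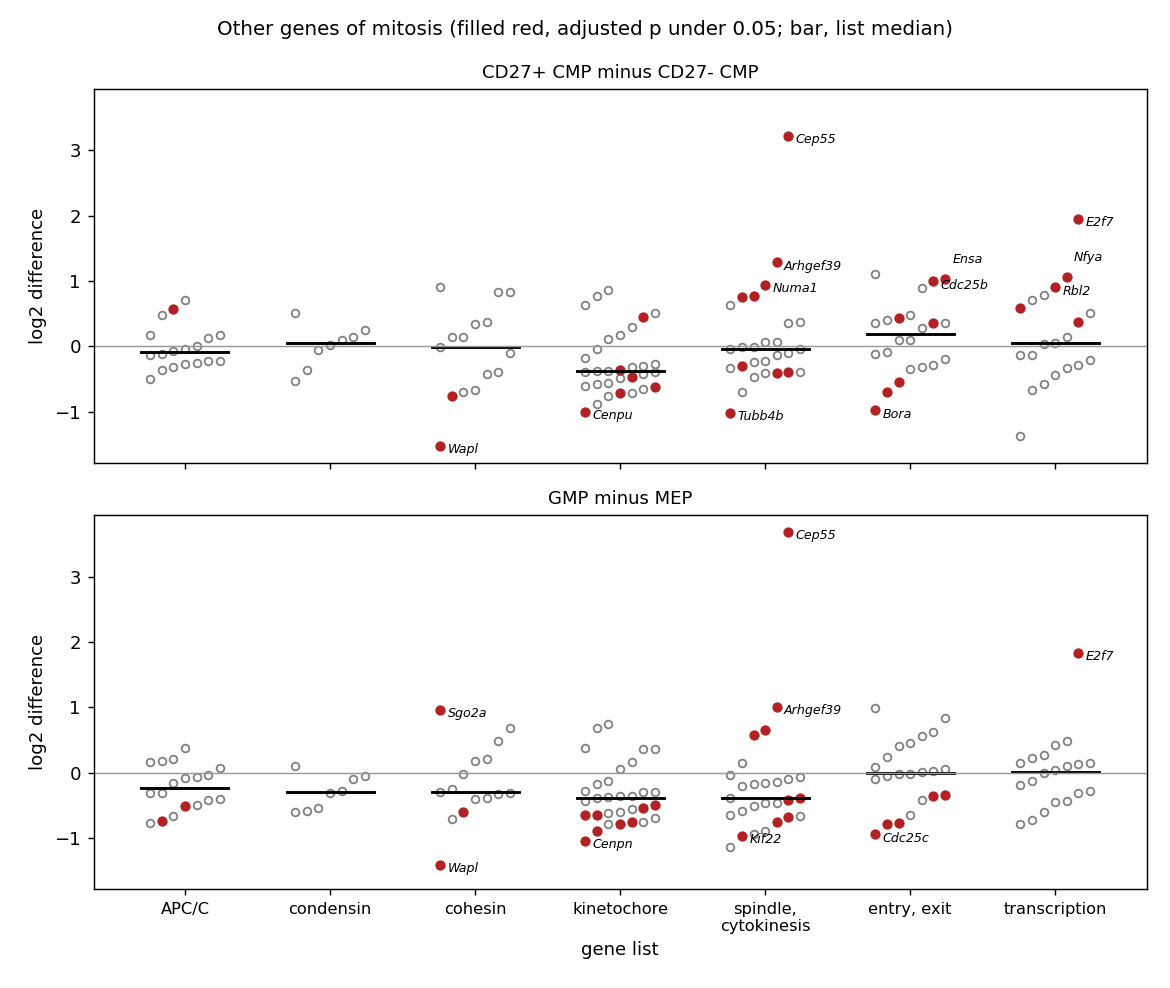
Log2 difference (y axis) of the 140 other mitosis genes by list (x axis) in CD27+ CMP minus CD27- CMP (upper panel) and GMP minus MEP (lower panel). Points are genes, filled red where the adjusted p was under 0.05 and named where the size was also over 0.9, and bars are list medians. Cep55 lies at 3.22 and 3.68, and the kinetochore list has medians of -0.38 and -0.39.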

How the data were processed

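The 12 arrays have deposited log2 values of 45037 probe sets. The submitters' processing notes name GCRMA as the authors' method. Its version and the logarithm's base are not given in those sources, and the values were read as log2. Per probe set the median of the 12 arrays is 0, so absolute signal is lost. GCRMA draws weak signals toward background, which makes the size of a fold uncertain where 1 group is near background. The annotation gave 1 symbol to 34945 probe sets, several to 932 and none to 9160, and 34741 of the first were found in RefSeq (GRCm38.p6) by gene number.

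Of a gene's probe sets, the one with the largest SD over the arrays was used. Differences were fitted over all 12 arrays with limma 3.58.1 in R 4.3.3 (1 mean per population, empirical Bayes, two-sided, Benjamini-Hochberg over all genes, threshold 0.05). The script was tested on simulated data. Precision is limited by having 3 arrays per population. The genes, the lists, the tests and the alternatives were chosen with earlier results of these data known. Named were the 32 listed genes, genes of fixed lists, and the 8 other genes nearest to the mean profile. Replicate numbers from the labels were checked as pairs on deviations from group means: all 3 pairs were over 0.1 for GMP with MEP (0.434, 0.275 and 0.576) and for CD27+ CMP with GMP (0.572, 0.226 and 0.261), and not for the other comparisons. Between 0 and 5 values were identical between replicate arrays. Alternatives covered normalization, centring, array weights, the replicate block, the choice and number of probe sets, a range filter, robust moderation and leaving out each array.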

Additional observations from a re-analysis of the deposited data

How the results depend on the processing

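The 24 passing differences of mitosis genes were recomputed under up to 21 alternatives each, 500 values in all. Of these, 435 kept direction and call, 65 missed the threshold and 0 reversed. Plk1 and Cenpa in 4 comparisons each, Ccnb2 in GMP minus MEP and Kif23 in CD27+ CMP minus CD27- CMP kept their call in all alternatives run. The probe set with the second largest standard deviation lost most, 13 of 24, and with it 3 genes passed in CD27+ CMP minus CD27- CMP and 5 in the F test, against 7 and 8. Plk1 and Ccnb2 have a single probe set each. That setting and the mean of probe sets reused the same values for them, so their kept calls there are no test on another probe set. Quantile normalization lost 6 of 24. They were Ccna2 and Anln in CD27+ CMP minus CD27- CMP, and Cdc20 and Cdca8 in GMP minus MEP. Cdc20 in CD27+ CMP minus MEP and Ccna2 in CD27- CMP minus GMP were lost with it as well. With array weights estimated gene by gene, chosen after seeing the data because limma's default weights did not converge and so were not used, 13 genes passed in GMP minus MEP, 4 in CD27- CMP minus MEP, 18 in CD27+ CMP minus MEP and 19 in the F test. Those weights ran from 0.184 for CD27- CMP replicate 3 to 11.1 for MEP replicate 2, and they also raised the calls over all genes. With the mean of a gene's probe sets, 1 gene passed in CD27+ CMP minus GMP and 8 in CD27+ CMP minus MEP. The cause of these shifts was not tested. Shares of all genes under these settings are not printed here. The counts in this paragraph and the next therefore show only how the calls depend on the processing, and nothing particular to mitosis genes.

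Leaving out 1 array in turn gave 4 to 7 genes in CD27+ CMP minus CD27- CMP, 4 to 7 in GMP minus MEP, 4 to 8 in CD27+ CMP minus MEP, 4 to 7 in CD27- CMP minus GMP, 6 to 9 in the F test, and 0 in both other comparisons. With the replicate block, 6 genes passed in CD27+ CMP minus CD27- CMP, 5 in GMP minus MEP, 5 in CD27+ CMP minus MEP, 6 in CD27- CMP minus GMP, 6 in the F test and 0 in both others. In GMP minus MEP the replicate block ended the call of Cdca8 and changed no other. Deviations of GMP and MEP arrays with equal numbers correlated at 0.434, 0.275 and 0.576, and the cause was not tested. The labels do not say that equal numbers belong together. The block was fitted over all 12 arrays, so it was no paired test of GMP against MEP alone. Over all arrays, 9 of the 12 correlated best with an array of their own number. With 3 arrays per population, intervals stay wide for genes such as Cenpe and Cenpf, and flat probe sets say nothing about level.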
